A study of Mus musculus with 8 samples.

Results

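Glycolysis and hypoxia-inducible genes were followed in mouse macrophages that did or did not express a reporter of the cytokine gene Il19. The set holds 36 genes chosen by symbol, and all 36 were found among the 17823 rows of the count table and passed the expression filter that left 12610. They comprise 18 glycolytic enzymes, 4 glucose and lactate transporters, 3 regulators of glycolytic flux, 3 genes of oxygen sensing and 8 other targets of hypoxia-inducible factor (HIF). Bone marrow of C57BL/6 mice was cultured for 7 days with 20 ng of M-CSF, the macrophage growth factor, and the macrophages were treated with 1 µg/ml of lipopolysaccharide (LPS) of Escherichia coli. Libraries of polyadenylated RNA were made from 4 samples of Il19-tdT positive cells (tdT+) and 4 of Il19-tdT negative cells (tdT-), each numbered 1 to 4 as biological replicates. Il19-tdT is read here as a tdTomato reporter of Il19. Both groups received LPS, and no library without LPS was compared. The sources used here do not state the hours of LPS, how positive and negative cells were separated, how many mice were used or whether tdT- cells carry the reporter allele.

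Glycolysis turns glucose into pyruvate in the cytosol, and lactate dehydrogenase turns pyruvate into lactate, which leaves the cell through monocarboxylate transporters. The Hif1a protein is hydroxylated by the prolyl hydroxylases Egln1 and Egln3 when oxygen is present and is then degraded, and when it is stable it binds DNA at a short core, ACGTG or GCGTG, and activates glycolytic and other genes. In macrophages LPS is known to raise Hif1a and to shift energy metabolism toward glycolysis. The comparison asks whether reporter-positive and reporter-negative cells, all treated with LPS, differ in these genes.

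The libraries held between 49850537 and 58516454 counts, and the 36 genes took 1.55% to 1.91% of them. Levels between libraries are given as CPM, counts scaled to a common library size with trimmed-mean (TMM) factors, and levels between genes as RPKM, which divides CPM by the deposited gene length. Libraries of the same replicate number varied together, so the number was also tried as a block in the model. Macrophage markers were abundant, with Lyz2 at 5663 CPM in tdT+ and 6209.8 CPM in tdT- libraries. Markers of other cells differed between the groups. The summed level of 12 stromal markers, of which Col1a1 was the most abundant, was 84.2 to 216 CPM in tdT+ and 355 to 3129.7 CPM in tdT- libraries. That of 7 monocyte and progenitor markers in the fit, led by Chil3, was 8.42 to 10.6 CPM in tdT+ and 29.7 to 167 CPM in tdT- libraries. Of 6 neutrophil markers in the fit, only S100a8, the most abundant, was higher in tdT+ libraries. It was at 452 ± 68.7 CPM in tdT+ and 241 ± 143 CPM in tdT- libraries (SD, n = 4 each). The others had lower means in tdT+ libraries, such as S100a9 at 0.713 ± 0.677 CPM in tdT+ and 102 ± 71.0 CPM in tdT- libraries. The median log2 fold change of the 6 was -3.78 without the block. Lymphocyte and erythroid markers were at or near 0: Cd4, the most abundant, averaged 0.749 and 0.481 CPM, and Cd3e had 0 and 1 counts in tdT+ and tdT- libraries. Klf1, the most abundant erythroid marker, had 9 counts in tdT+ and 8 in tdT- libraries. There were 2 libraries that stood apart. tdT+ replicate 3 had 12.3% of its counts in the ribosomal RNA precursor Rn45s, against 0.302% to 0.734% elsewhere. tdT- replicate 4 had 1496 CPM of 7 osteoclast markers, led by Acp5, against 99.2 to 142 CPM in tdT+ libraries and 109 to 191 CPM in the other tdT- ones.

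Most glycolytic and hypoxia-inducible genes showed no detectable difference between tdT+ and tdT- macrophages. With the group as the only term, edgeR's quasi-likelihood test called 0 of the 36 at an adjusted p under 0.05, where it called 0.0238% of all genes tested. None of the 36 had an unadjusted p under 0.05 either, against 16.3% of all genes, and the DESeq2 Wald test called 0 of them and 7.30% of all genes. The groups overlapped for all 36, whereas tdT+ libraries lay wholly above for 5.46% and wholly below for 5.92% of all genes. With the replicate number as a block, 3 of 36 passed, where 15.8% of all genes did, 2 higher and 1 lower in tdT+ libraries, against 8.03% higher and 7.81% lower among all genes. Slc16a1 and Pfkfb4 rose and Slc2a6 fell. Without number 3, which holds the library rich in Rn45s, or without number 4, which holds the one rich in osteoclast markers, Slc16a1 and Slc2a6 still passed, and 2.80% and 20.2% of all genes did. Scaling by library totals alone gave 1 gene higher, Slc16a1, and 2 lower, Slc2a6 and Pfkp, and of all genes called 29.8% were higher (11.2% of genes passed), against 50.7% with TMM. Among the 36, no enzyme of the main pathway and none of the 8 other HIF targets passed with TMM scaling. In these bulk samples a change in the mix of cells and a change of RNA per cell cannot be told apart.

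**Figure D1:**
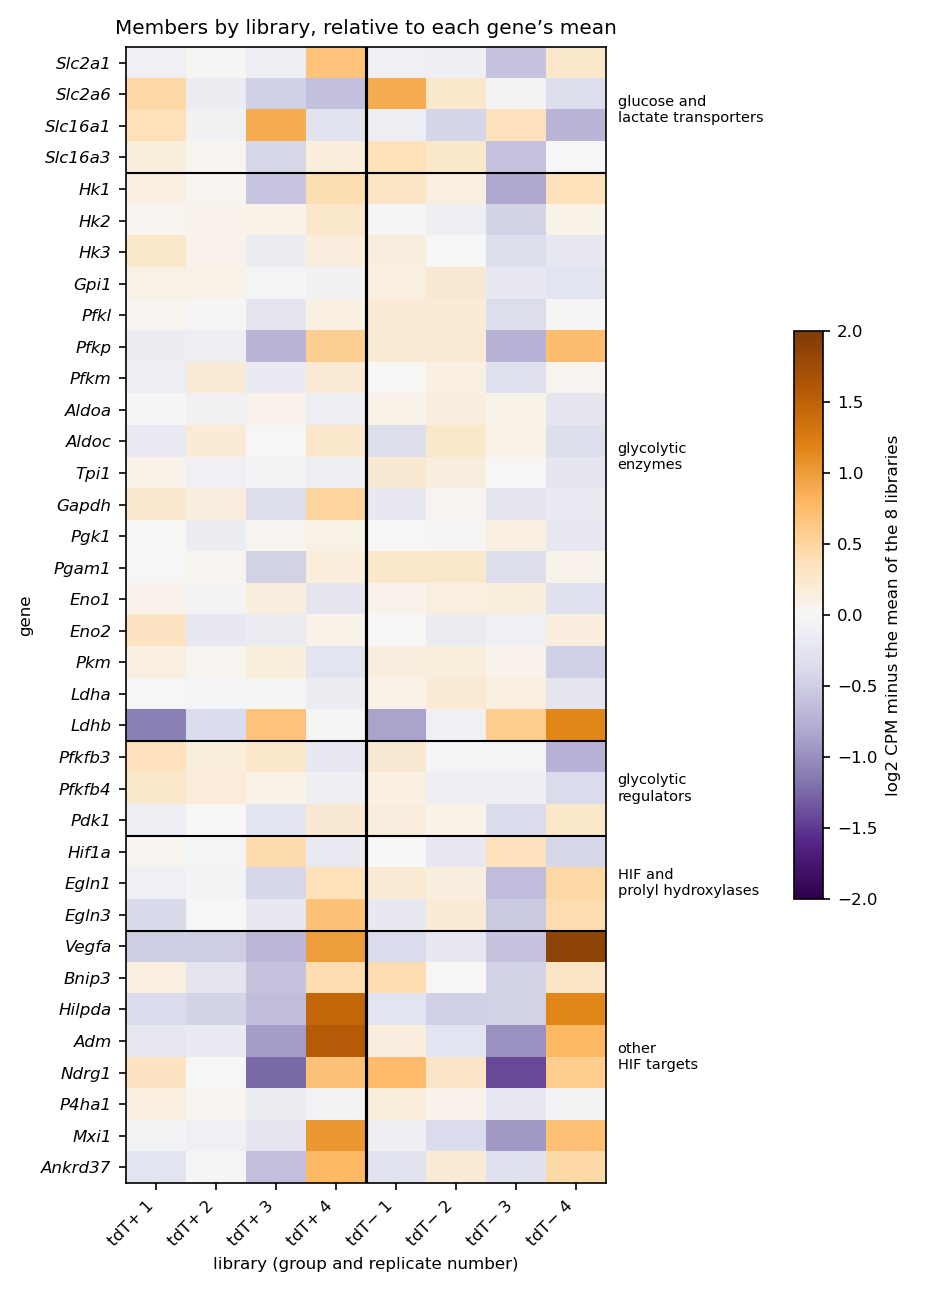
Level of each of the 36 genes in each library, as log2 CPM minus that gene's mean over the 8 libraries (colour scale), with tdT+ libraries left of the line and tdT- ones right of it. Hilpda, Adm, Mxi1 and Vegfa were above their mean in replicate 4 of both groups, and Ndrg1 was below it in replicate 3 of both groups, whereas most enzymes stayed close to their mean.

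Among the transporters, 2 changed and in opposite directions. Slc16a1, a carrier of lactate and pyruvate across the plasma membrane, lies on chromosome 3 at 104638664 to 104658462 of GRCm38 and had 139.6, 103, 199 and 89.1 CPM in tdT+ replicates 1 to 4, against 99.7, 80.4, 138 and 66.2 CPM in tdT- replicates 1 to 4. Within each number the tdT+ library was higher, although the groups overlapped, with number 3 high and number 4 low in both. Its log2 fold change was 0.45 with the block (SE 0.057, edgeR adjusted p = 0.00894), and 0.46 without it (adjusted p = 0.498). On CPM, the exact permutation test (two-sided), which ignores the replicate number, gave 0.229, and with 70 splits it cannot go below 0.0286.

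Slc2a6, a hexose transporter of lysosomal membranes that LPS is known to raise in macrophages, lies on chromosome 2 at 27021363 to 27028000. It had 175, 115, 90.7 and 82.0 CPM in tdT+ replicates 1 to 4, against 231, 152, 121 and 99.1 CPM in tdT- ones. Each tdT+ library was lower than the tdT- library of its number, and number 1 was the highest in both groups. The log2 fold change was -0.37 with the block (SE 0.057, edgeR adjusted p = 0.0113) and -0.38 without it (adjusted p = 0.609; exact two-sided permutation p = 0.4). Without number 2 the blocked call was lost (adjusted p = 0.0537).

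The main glucose importer and the main lactate exporter did not pass. Slc2a1 averaged 449.8 ± 128 CPM in tdT+ and 376 ± 89.1 CPM in tdT- libraries (SD, n = 4 each), with a log2 fold change of 0.25 with the block (SE 0.091, edgeR adjusted p = 0.105). Its level was 641 CPM in tdT+ replicate 4, and the other tdT+ libraries held 371 to 407 CPM. Slc16a3, the exporter of lactate and the most abundant transporter of the 4 at 253 RPKM, had 717, 664, 476 and 714 CPM in tdT+ replicates 1 to 4 and 819, 769, 418 and 631 CPM in tdT- ones. The groups overlapped, with number 3 lowest in both, and the log2 fold change was -0.036 (SE 0.22, edgeR adjusted p = 0.961).

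None of the 18 enzymes passed either TMM-scaled fit between the groups. Their log2 fold changes ran from -0.46 to 0.31, with a median of -0.0023, and 9 of 18 were above 0. The median over all genes tested was -0.00024. Genes counted at low levels set both ends of that range: Ldhb, at 0.792 RPKM, had the lowest value and Gapdh, at 4.43 RPKM, the highest. The true level of Gapdh is uncertain, as described below. Aldoa, which splits fructose bisphosphate, had 2568, 2407, 2652 and 2323 CPM in tdT+ replicates 1 to 4, against 2670.3, 2784, 2692 and 2167 CPM in tdT- ones. Ldha, which reduces pyruvate to lactate, had 2310.2, 2264, 2289 and 2120.3 CPM in tdT+ and 2465, 2673, 2555 and 1954 CPM in tdT- replicates. For both genes the groups overlapped, and their log2 fold changes were -0.052 (SE 0.14) and -0.10 (SE 0.14). Of the 18, 2 were higher in tdT+ libraries in all 4 numbers, Hk2 and Hk3, and none was lower in all 4. Among all genes 21.9% were higher and 19.6% lower in all 4.

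Hk2, the inducible hexokinase that traps glucose as its phosphate, had the smallest p of the enzymes in the fit without the block. It was at 216, 221, 223 and 251 CPM in tdT+ replicates 1 to 4 and at 207, 196, 155 and 222 CPM in tdT- ones, and only tdT- replicate 4 reached the tdT+ range. Its log2 fold change was 0.22 (SE 0.12, edgeR adjusted p = 0.423, or 0.111 with the block). With the block Pfkp had the smallest p (log2 fold change -0.21, SE 0.077, adjusted p = 0.107). Pkm, the pyruvate kinase of the last energy-yielding step, was the most abundant member at 1507 RPKM. It had 4266, 4028, 4334 and 3233 CPM in tdT+ replicates and 4277, 4349.8, 4079.99 and 2771 CPM in tdT- ones, lowest in number 4 of both groups (log2 fold change 0.035, SE 0.19, adjusted p = 0.954).

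Of the 3 regulators of flux, Pfkfb4 passed with the block. Pfkfb4, a bifunctional enzyme that makes and removes the allosteric activator of phosphofructokinase, had 46.2, 43.8, 41.4 and 36.1 CPM in tdT+ replicates 1 to 4, against 41.8, 35.8, 36.1 and 29.9 CPM in tdT- ones. The tdT+ library was higher in each number. Its log2 fold change was 0.23 with the block (SE 0.059, edgeR adjusted p = 0.0419) and 0.22 without it (adjusted p = 0.404; exact two-sided permutation p = 0.143). That call rested on numbers 1 to 3 and on the scaling: it was lost without each of these numbers in turn and with libraries scaled by totals alone, where adjusted p reached up to 0.200.

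Pfkfb3, the related enzyme with the stronger kinase activity, was the most abundant regulator at 319.7 RPKM. It had 2109.7, 1845, 1984 and 1449.6 CPM in tdT+ replicates and 1924, 1602, 1602 and 999.8 CPM in tdT- ones, higher in the tdT+ library of each number, and did not pass (log2 fold change 0.30, SE 0.088, edgeR adjusted p = 0.0638 with the block). Pdk1, the kinase that switches off pyruvate dehydrogenase, averaged 88.8 ± 13.2 CPM in tdT+ and 93.9 ± 16.5 CPM in tdT- libraries (SD, n = 4 each), with a log2 fold change of -0.075 (SE 0.071) with the block.

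Hif1a and its hydroxylases gave no call between the groups. Hif1a lies on chromosome 12 at 73901324 to 73947554 and was at 134 RPKM. It had 675, 637, 895 and 581 CPM in tdT+ replicates 1 to 4 and 652, 571, 839 and 489.96 CPM in tdT- ones. Each tdT+ library was slightly above the tdT- library of its number, by a log2 fold change of 0.14 (SE 0.068, edgeR adjusted p = 0.209 with the block). Egln1 had 95.6, 97.6, 76.0 and 130.1 CPM in tdT+ replicates and 117, 112, 64.8 and 141 CPM in tdT- ones, and Egln3 had 37.0, 47.9, 42.1 and 78.1 CPM in tdT+ and 41.7, 55.0, 32.9 and 64.6 CPM in tdT- replicates. These hydroxylases, which are also HIF targets, overlapped between the groups and had log2 fold changes of -0.096 and 0.064 with the block, with SEs of 0.090 and 0.11.

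The other HIF targets did not share a direction. Their median log2 fold change was 0.0057, with 5 of 8 above 0, beside 0.018 over the 25 enzymes, transporters and regulators and -0.00024 over all genes. This median rested on the libraries of number 4: it was -0.39 without tdT+ replicate 4 and 0.27 without tdT- replicate 4. Without tdT+ replicate 3 it was 0.15. Within numbers 1 to 4 the median log2 difference between the tdT+ and the tdT- library was -0.11, -0.12, -0.018 and 0.22 for the 8 targets. For the 25 glycolytic genes it was -0.035, -0.11, 0.087 and 0.16.

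Vegfa, the angiogenic growth factor gene, had the smallest p among these targets in the fit without the block. It was at 36.5, 36.6, 32.3 and 103 CPM in tdT+ replicates 1 to 4, against 40.3, 45.5, 34.6 and 191 CPM in tdT- ones. Number 4 stood far above the others in both groups, and the tdT- library was higher in every number. The log2 fold change was -0.36 with the block (SE 0.13, edgeR adjusted p = 0.0977) and -0.57 without it (adjusted p = 0.725). Bnip3, a receptor for the removal of mitochondria and the most abundant of these targets at 88.4 RPKM, had 164, 127, 101 and 202 CPM in tdT+ and 202, 152, 109 and 185 CPM in tdT- replicates. The groups overlapped, with number 3 lowest in both (log2 fold change -0.12, SE 0.25, adjusted p = 0.868). P4ha1, a subunit of collagen prolyl hydroxylase, had the log2 fold change closest to 0, at 321 ± 26.4 CPM in tdT+ and 321 ± 34.4 CPM in tdT- libraries (SD, n = 4 each). Mxi1, by contrast, was higher in the tdT+ library of each number (log2 fold change 0.34, SE 0.10, edgeR adjusted p = 0.0700 with the block).

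**Figure D2:**
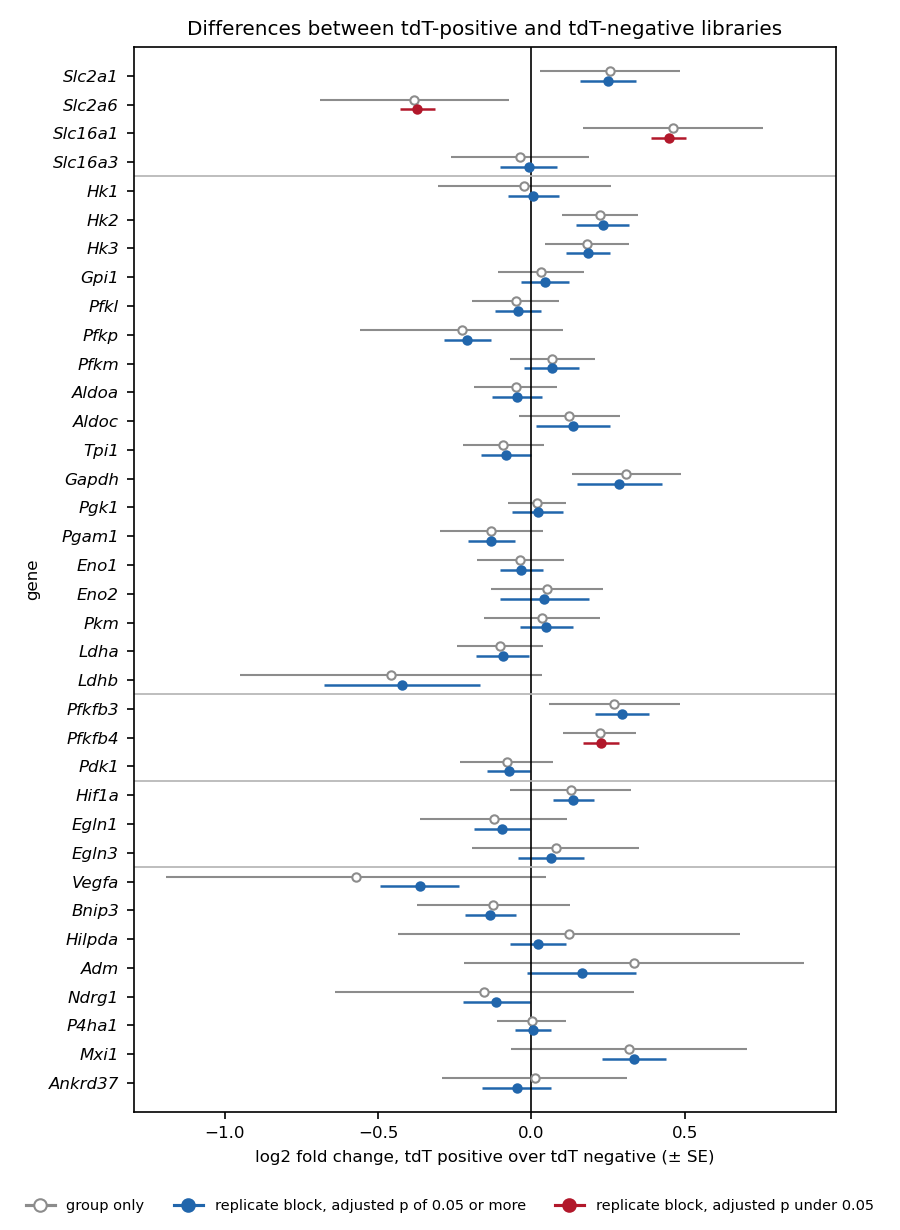
Log2 fold change of each gene, tdT positive over tdT negative, with its SE, from the model with the group alone (open grey) and with the replicate number as a block (filled). Slc16a1 (0.45), Slc2a6 (-0.37) and Pfkfb4 (0.23) are the genes with an adjusted p under 0.05 in the blocked model, and the SEs of Vegfa, Hilpda, Adm and Ndrg1 are much wider without the block.

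Replicate numbers gave many more calls than the reporter groups did. In the model with number and group, a joint test of the 3 number terms called 22 of the 36 genes, where it called 27.7% of all genes tested (edgeR quasi-likelihood test, adjusted p under 0.05). The calls covered 4 of 4 transporters, 5 of 18 enzymes, 3 of 3 regulators, 3 of 3 oxygen-sensing genes and 7 of 8 other HIF targets. The enzymes' share, 27.8%, was close to that of all genes, and the other HIF targets' share was 87.5%. Whether these shares differ was not tested. What a replicate number stands for (a mouse, a culture or a day) is not given in the labels. The count was 13 without number 3, 13 without tdT- replicate 3, 14 without tdT- replicate 1 and 14 without tdT+ replicate 2, of which 5, 7, 6 and 7 were other HIF targets and 1, 2, 2 and 2 enzymes. All genes were called at 11.4%, 13.0%, 7.58% and 11.3% in those fits. Without tdT+ replicate 3, rich in Rn45s, 15 of the 36 and 14.7% of all genes passed, and without tdT- replicate 4, rich in osteoclast markers, 23 and 34.5%, with 7 of 8 other HIF targets in either fit. Of the 5 enzymes called, Pfkp passed in 16 and Hk1 in 15 of 16 alternative fits, but Pgam1 in 9, Pkm in 3 and Ldhb in 6 of the 15 that kept it. The 7 other HIF targets called passed in 15 or 16 of 16.

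Number 4 held the most RNA of the 8 other HIF targets in both groups, with sums of 853 CPM in tdT+ and 878 CPM in tdT- replicate 4. The 25 glycolytic genes, by contrast, summed lowest in number 4 of both groups. Their sum was 14870 CPM in tdT+ replicate 4, against 16007 to 17117 CPM in the other tdT+ libraries. In tdT- replicate 4 it was 13009 CPM, against 15674 to 17502 CPM in the other tdT- ones. Hilpda, whose protein sits on lipid droplets and restrains their breakdown, had 16.3, 15.2, 13.3 and 57.0 CPM in tdT+ replicates 1 to 4 and 17.3, 14.9, 15.1 and 46.3 CPM in tdT- ones (number test, edgeR adjusted p = 0.000668). Adm, which encodes the vasodilator adrenomedullin, had 5.14, 5.28, 3.20 and 17.7 CPM in tdT+ and 6.57, 4.99, 3.01 and 10.3 CPM in tdT- replicates (adjusted p = 0.00553). Mxi1, a repressor that competes with Myc, had 32.1, 31.3, 28.5 and 68.8 CPM in tdT+ and 31.2, 26.1, 17.5 and 54.3 CPM in tdT- replicates (adjusted p = 0.00323). Ankrd37, an ankyrin repeat gene, had 14.98, 17.6, 11.7 and 31.0 CPM in tdT+ and 14.8, 20.6, 14.7 and 24.7 CPM in tdT- replicates (adjusted p = 0.0107). For Hilpda, Adm, Mxi1, Ankrd37 and Vegfa, both libraries of number 4 lay above all 6 libraries of the other numbers.

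In terms of log2 CPM, the median of the other HIF targets in number 4 was 1.13 above the mean of the other tdT+ libraries. It was 0.93 above that of the other tdT- ones. The median enzyme was 0.16 above and 0.087 below, and the median gene 0.025 and -0.0030 from the mean of the other tdT+ and tdT- libraries. Of the 25 glycolytic genes, 5 were highest and 10 lowest in number 4 of both groups, against 18.9% and 17.1% of all genes. Of the 18 enzymes, 3 were highest and 6 lowest there. Slc2a1, Hk1 and Pfkp were among those above the mean of the other libraries in number 4 of both groups. Pfkp, the platelet-type phosphofructokinase, was 0.89 and 0.86 above the other tdT+ and tdT- libraries. Pkm and Pfkfb3 were among those below that mean, with -0.38 and -0.61 for Pkm and -0.45 and -0.77 for Pfkfb3.

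Number 3 held the least RNA of most of the other HIF targets. Ndrg1, a stress-responsive gene that hypoxia raises, had 50.2, 39.9, 16.9 and 65.0 CPM in tdT+ replicates 1 to 4 and 67.5, 48.8, 15.02 and 60.1 CPM in tdT- ones (number test, edgeR adjusted p = 0.00175). Replicate 3 was the lowest library of both groups for 7 of 8 other HIF targets, 7 of 18 enzymes and 18.3% of all genes. Replicate 4 was the highest in both for 5 of 8 targets, 3 of 18 enzymes and 18.9% of all genes. Without number 4 the number test still called 5 of the 8 targets (Bnip3, Adm, Ndrg1, P4ha1 and Ankrd37) and 7 of 18 enzymes, where it called 29.7% of all genes. Without number 3 it called Vegfa, Hilpda, Adm, Mxi1 and Ankrd37 and 1 enzyme, Pfkp.

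The transcript of Hif1a itself ran opposite to most of the 8 other HIF targets across numbers. The glycolytic genes were divided: of 25, 10 were lowest in number 4 of both groups, as Hif1a was, and 10 in number 3. Hif1a was highest in number 3 and lowest in number 4 of both groups (number test, edgeR adjusted p = 0.00957). In log2 CPM it was 0.51 and 0.56 above the other tdT+ and tdT- libraries in number 3. In number 4 it was 0.32 and 0.47 below them. Egln1 and Egln3 followed the other HIF targets, and were highest in number 4 of both groups (number test, edgeR adjusted p = 0.0113 and 0.0132). Slc16a1 had the same order of numbers as Hif1a in both groups, and Slc2a6 was highest in number 1 and lowest in number 4 of both.

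**Figure D3:**
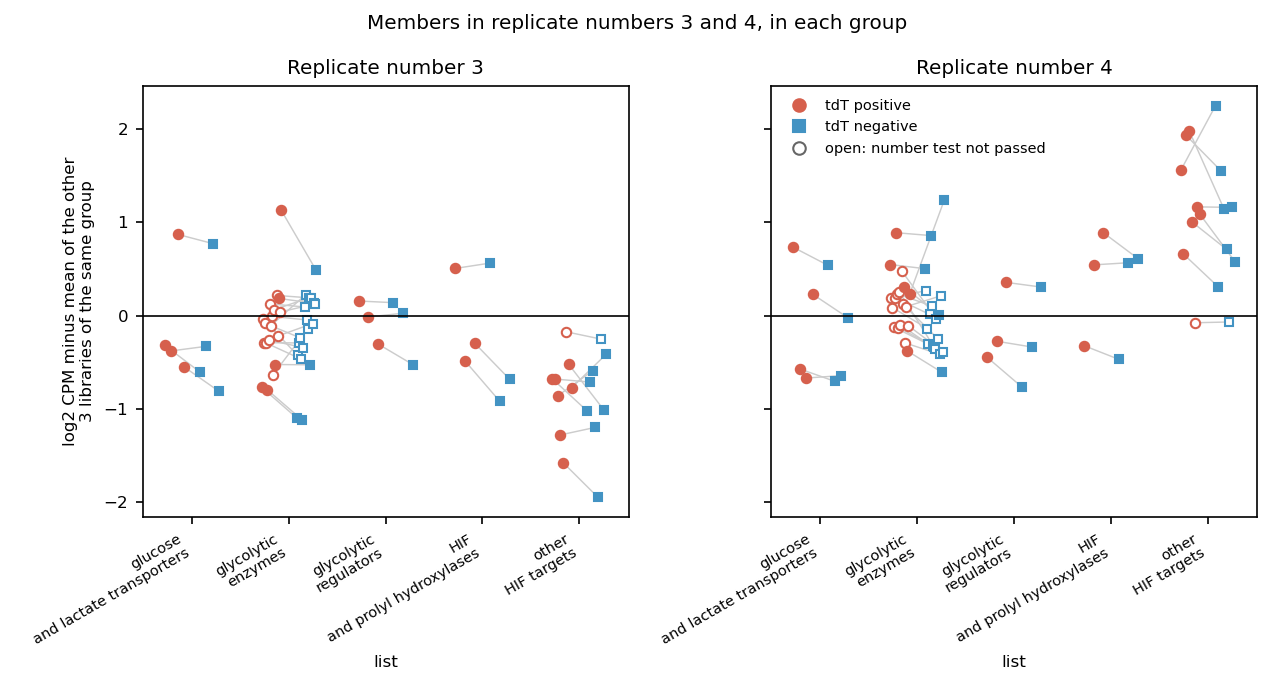
Log2 CPM of each gene in replicate number 3 (left) and number 4 (right), minus the mean of the other 3 libraries of its group, by list, with tdT+ libraries (circles) left of tdT- ones (squares) and a line joining the points of a gene. In number 4, 7 of the 8 other HIF targets lie above 0 in both groups, and in number 3 all 8 lie below 0, whereas enzymes scatter around 0.

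Other genes also marked number 4. Of 9 LPS response genes, 8 passed the number test, and 5 were highest in number 4 of both groups, where 27.7% and 18.9% of all genes were. These 5 were Tnf, Il12b, Acod1, Ptgs2 and Cxcl1, and Il12b was 2.22 and Ptgs2 1.46 above the other tdT+ libraries and 2.03 and 1.38 above the other tdT- ones in log2 CPM. Of 8 macrophage markers, 5 were lowest in number 4 of both groups and 2, Mertk and Cd14, were highest, against 17.1% and 18.9% of all genes. The summed level of all 8 was 14229 CPM in tdT+ replicate 4, against 16984 to 18467 CPM in the other tdT+ libraries. It was 11998 CPM in tdT- replicate 4, against 17648 to 21521 CPM in the other tdT- ones. The osteoclast marker Ctsk had 8.399 CPM in tdT+ and 324 CPM in tdT- replicate 4, against 1.02 to 2.87 and 3.74 to 19.2 CPM in the other libraries of these groups. Stromal markers summed to 168 and 3129.7 CPM in number 4 of the tdT+ and tdT- group, and the tdT- value was the highest of any library. The part of these genes in the HIF target pattern was not tested.

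Most glycolytic genes and all other HIF targets with a window carried the HIF core near a start site. RefSeq promoter windows of GRCm38.p6, 250 bases before to 50 after each start, were at hand for 35 of the 36 genes, Ndrg1 being the one without. The motif ACGTG or GCGTG was searched on both strands, and CACGTG holds ACGTG on each strand. It was in at least 1 window of 22 of 25 glycolytic genes, 7 of 7 other HIF targets and 3 of 3 oxygen-sensing genes. By gene, the share was 91.4% for these 35 and 46.7% for all 27025 genes with a window. The 35 genes had 52 windows, and a gene with more windows has more chances of a match. Over single windows the share was 80.8% for these genes and 43.8% for all 32851 promoter windows. For ACGTG alone it was 53.8% and 19.6%. A match of 5 letters is a description and no binding site, and binding was not measured here.

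The 250 bases before the start are printed for 3 genes of the HIF lists and 3 glycolytic genes. Adm was highest in number 4 and lowest in number 3 of both groups. Egln3 was highest in number 4 of both, and Bnip3 was lowest in number 3 of both. The glycolytic genes are Slc2a1, which was high in number 4, Slc16a1, which rose in tdT+ cells, and Pgk1, which passed neither test. The sequences read 5′ to 3′ along the gene, with each ACGTG or GCGTG, in either orientation, in capitals.
Adm, chr7:110627407-110627656, plus strand: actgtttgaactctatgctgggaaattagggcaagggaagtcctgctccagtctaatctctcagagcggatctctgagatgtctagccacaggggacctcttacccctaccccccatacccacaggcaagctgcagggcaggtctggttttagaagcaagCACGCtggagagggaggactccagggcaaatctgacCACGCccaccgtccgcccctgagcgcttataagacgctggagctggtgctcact
Egln3, chr12:54203875-54204124, minus strand: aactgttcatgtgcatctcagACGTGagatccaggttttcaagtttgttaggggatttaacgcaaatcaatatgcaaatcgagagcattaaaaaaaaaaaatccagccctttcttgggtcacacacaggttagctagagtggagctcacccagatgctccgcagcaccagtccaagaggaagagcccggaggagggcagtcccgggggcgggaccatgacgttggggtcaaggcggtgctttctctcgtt
Bnip3, chr7:138909507-138909756, minus strand: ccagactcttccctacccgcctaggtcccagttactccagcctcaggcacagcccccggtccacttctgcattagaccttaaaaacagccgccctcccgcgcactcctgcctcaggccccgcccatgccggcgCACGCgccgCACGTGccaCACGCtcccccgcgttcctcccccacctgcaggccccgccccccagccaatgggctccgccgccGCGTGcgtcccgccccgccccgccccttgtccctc
Slc2a1, chr4:119108495-119108744, plus strand: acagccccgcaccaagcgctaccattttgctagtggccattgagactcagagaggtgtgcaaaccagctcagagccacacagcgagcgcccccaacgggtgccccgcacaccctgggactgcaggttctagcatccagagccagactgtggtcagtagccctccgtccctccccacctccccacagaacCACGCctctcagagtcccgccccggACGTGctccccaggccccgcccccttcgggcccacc
Slc16a1, chr3:104638414-104638663, plus strand: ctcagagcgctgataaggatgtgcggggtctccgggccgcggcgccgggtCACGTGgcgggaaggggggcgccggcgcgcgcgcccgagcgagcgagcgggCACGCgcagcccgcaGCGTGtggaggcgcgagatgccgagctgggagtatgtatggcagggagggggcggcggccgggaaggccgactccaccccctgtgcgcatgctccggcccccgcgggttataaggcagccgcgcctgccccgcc
Pgk1, chrX:106186850-106187099, plus strand: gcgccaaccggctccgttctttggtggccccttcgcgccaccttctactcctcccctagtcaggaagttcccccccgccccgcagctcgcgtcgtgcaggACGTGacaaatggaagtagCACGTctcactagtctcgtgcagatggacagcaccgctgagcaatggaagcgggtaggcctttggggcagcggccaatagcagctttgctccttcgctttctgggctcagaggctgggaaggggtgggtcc
Adm shows 2 cores, Egln3 1, far upstream, and Bnip3 a cluster around a CACGTG. Pgk1, with 126, 114, 130.2 and 134 CPM in tdT+ and 124, 128, 137 and 109 CPM in tdT- replicates, also shows 2 (number test, edgeR adjusted p = 0.683). The core was in windows of genes that passed the number test and of genes that did not.

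Among hexokinases, phosphofructokinases, aldolases, enolases and lactate dehydrogenases, 1 isoenzyme carried most of the transcript. Per length, Hk3 made up 63.5 ± 2.71% of the RPKM of the 3 hexokinases in tdT+ and 62.1 ± 5.24% in tdT- libraries (SD, n = 4 each), Hk1 20.2% and 22.5%, and Hk2 16.3% and 15.3%. Pfkl, the liver-type phosphofructokinase, held 78.5% and 76.8% of its family, and Pfkm, the muscle type, 2.56% and 2.32%. Aldoc, Eno2 and Ldhb, the isoenzymes best known from brain or heart, held at most 0.558%, 0.246% and 0.155% of the aldolase, enolase and lactate dehydrogenase RPKM in any library. Pfkfb3 was at 319.7 RPKM and Pfkfb4 at 11.6. The hexokinase and phosphofructokinase shares differed between the groups by less than the larger SD. How reads that match several genes were counted is not given, as described below, so the aldolase, enolase and lactate dehydrogenase shares are uncertain.

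The most abundant members by RPKM were Pkm (1507), Aldoa (1389), Ldha (1207) and Tpi1 (661), averaged over the 8 libraries. Several enzymes of the same pathway were far lower. Gapdh, which encodes the dehydrogenase between the aldolase and kinase steps and is commonly used as an abundant control, was at 7.69, 7.24, 5.15 and 9.22 CPM in tdT+ and 5.68, 6.72, 5.47 and 5.79 CPM in tdT- replicates, or 4.43 RPKM. Pgam1 was at 27.0 and Pgk1 at 68.7 RPKM. In GENCODE transcripts, 58.4% of the 50-base windows of Gapdh also occur in another annotated gene, and 218 genes share at least 1. The shares were 68.0% for Pgk1, 49.5% for Eno1, 41.5% for Pgam1 and 23.7% for Pkm, and 0% for Slc2a1 and Hilpda. No source used here says how reads with several matches were counted, so the level of Gapdh and of these other enzymes is uncertain, and so are differences between them and other genes. Overlap with genes on the opposite strand was largest for Ankrd37, at 26.4% of its exon bases, and Bnip3, at 22.3%, and the strand setting of the counting is not given.

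**Figure D4:**
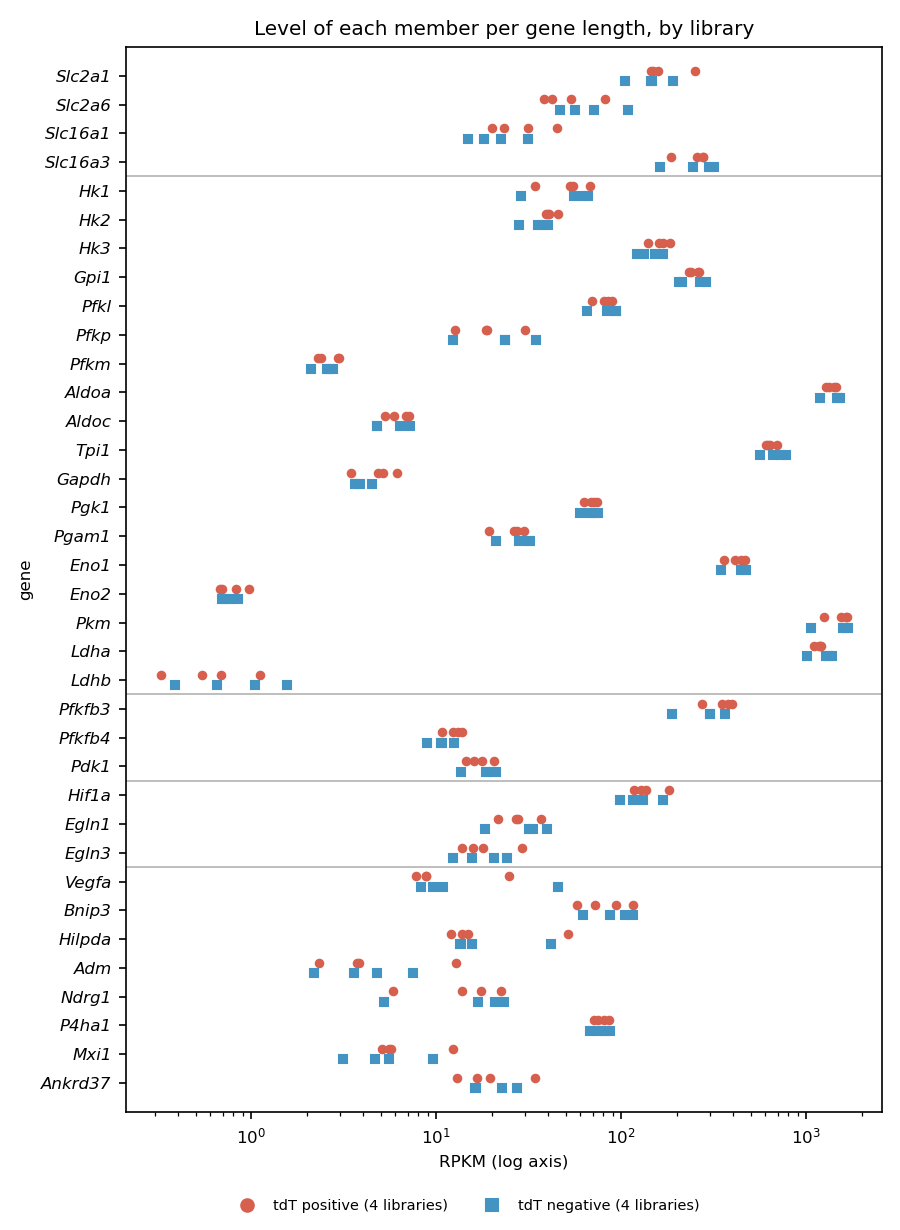
RPKM of each gene on a log axis, with a point for each tdT+ library (circles, upper) and each tdT- library (squares, lower). Pkm, Aldoa and Ldha lie above 1000 RPKM in every library, while Gapdh lies between 3.44 and 6.16 RPKM and the groups overlap for every gene.

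Further genes of the pathway were read from lists of other members. Among 27 further hypoxia-inducible genes tested, 7 fell and 0 rose with the block, where 7.81% of all genes fell and 8.03% rose, and none passed without it. Their median log2 fold change was -0.24, against 0.0051 for all genes. Cxcr4, a chemokine receptor, averaged 0.918 ± 0.295 CPM in tdT+ and 2.66 ± 1.02 CPM in tdT- libraries (SD, n = 4 each; log2 fold change -1.52, SE 0.19, edgeR adjusted p = 0.00852). Plod2, a collagen lysyl hydroxylase, fell by 2.50 and the lipoprotein receptor gene Vldlr by 2.81 on the log2 scale. Stromal markers fell in the same libraries, 11 of 12 with the block, and their part in these falls was not tested. Across numbers, 20 of the 27 passed the number test, and 17 were highest in number 4 of both groups, against 27.7% and 18.9% of all genes.

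In the remaining lists the share called with the block was near the 15.8% of all genes: 2 of 13, 1 of 9, 2 of 12 and 1 of 8. Of 13 further glycolytic isoenzymes and transporters tested, the glucose transporter gene Slc2a3 fell by 0.62 (SE 0.14, edgeR adjusted p = 0.0293 with the block) and the urate and hexose transporter gene Slc2a9 rose by 0.31 (adjusted p = 0.0365). Slc2a3 averaged 3.53 ± 0.716 CPM in tdT+ and 5.52 ± 1.64 CPM in tdT- libraries, well under Slc2a1. Of 9 further genes of oxygen sensing, Hif3a rose by 0.94 (adjusted p = 0.0340), and Vhl, Arnt and Hif1an did not pass. Hif3a was low, at 2.39 ± 0.801 CPM in tdT+ and 1.30 ± 0.613 CPM in tdT- libraries, with 27 counts in tdT- replicate 3. Epas1, which encodes the second HIF alpha subunit, averaged 0.535 and 0.863 CPM in tdT+ and tdT- libraries. Among 12 genes of pyruvate dehydrogenase and pyruvate import, the kinase genes Pdk3 and Pdk4 fell. Pdk3 averaged 18.1 ± 2.92 CPM in tdT+ and 23.2 ± 3.11 CPM in tdT- libraries, and Pdk4 had 8 counts over the tdT+ and 112 over the tdT- libraries. Of 8 pentose phosphate genes only Pgls, a lactonase, passed and fell by 0.33, while G6pdx and Pgd, the NADPH-forming dehydrogenases, had values of 0.12 and 0.040. Each of these calls was made with the block alone.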

How the data were processed

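Per the labels' protocols, 220 ng of total RNA per sample went into a TruSeq Stranded mRNA library. The deposited table holds raw counts per gene, with Entrez identifiers and gene lengths. Per the submitters' processing notes, STAR and mm10 were used. No source used here names the counting tool, its annotation or its strand setting. Table columns were assigned through the identifiers in the sample descriptions, and groups came from titles.

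edgeR 4.0.16 (R 4.3.3) kept 12610 genes (minimum count 10, minimum total 15), scaled by TMM (factors 0.865 to 1.15) and tested with the quasi-likelihood test, adjusted by Benjamini-Hochberg over all genes, threshold 0.05. Log2 CPM used a prior count of 2. RPKM was computed from the deposited lengths, given by the authors as another column of the table. Same-numbered libraries deviated together (correlations 0.627, 0.279, 0.619 and 0.558), so the numbers were treated as pairs. Chi-square per degree of freedom between libraries of a group was 54.0 to 759, so none repeats another. The libraries are numbered as biological replicates, but no label ties them to separate mice or cultures. The p-values therefore reflect only the spread among these samples, which may be technical.

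The members and lists were chosen with earlier results of these data known. Full statistics are given for members that passed either fit and, in each list, for the most abundant member and that with the smallest p; from lists of other pathway genes, up to 4 that passed, of which 1 is not reported here. Hilpda, Adm, Mxi1, Ndrg1, Pfkp, Pgk1, Ankrd37, Egln1, Egln3, Slc2a1, Hk1, Hk3, P4ha1, Pdk1, Aldoa, Ldha, Gapdh and the genes named as not passing were described after their values were seen. DESeq2 1.42.0, other scalings, filters and left-out libraries were alternatives. The scripts were tested on simulated data.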

Additional observations from a re-analysis of the deposited data

Results flagged for a closer look

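In 8 of 72 gene and group combinations, 1 library lay so far from the other 3 that the gap to its nearest neighbour, divided by the range of the group, exceeded Dixon's critical value. Chance alone gives about 1 in 20 such groups where groups are independent. These groups share the same 8 libraries and are not independent, so 8 of 72 was not tested against that share. All 8 are libraries of number 4. Slc2a1 had a ratio of 0.864 in tdT+ libraries, where replicate 4 held 641 CPM and the nearest library 407 CPM. For Pkm in tdT- libraries the ratio was 0.8291, with replicate 4 lowest at 2771 CPM and the nearest at 4079.99 CPM. Vegfa reached ratios of 0.939 in tdT+ and 0.930 in tdT- libraries, and Hilpda of 0.931 and 0.925, each with replicate 4 highest. Adm (0.856) and Mxi1 (0.910) were highest in tdT+ replicate 4.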

How the results depend on the processing

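Between the reporter groups, 3 genes and none of the 36 passed without the block. With the replicate number as a block 1998 genes and 3 of the 36 passed, as many of the 36 with the block and library totals (1418 genes, with Pfkp in place of Pfkfb4) or DESeq2 size factors (1990 genes). By the DESeq2 Wald test 921 genes and without a filter 216 genes passed, none of the 36. Leaving out 1 library gave 2 to 456 genes and 0 of the 36. The blocked fit without number 1, 2, 3 or 4 gave 1023, 347, 355 and 2535 genes, and 2, 1, 2 and 3 of the 36, Slc16a1 in each. Library totals moved the median of all genes to -0.076. The median of the other HIF targets ranged from -0.39 to 0.27 with 1 library left out, both ends from number 4. For replicate number, the 3489 genes and 22 of 36 became 974 to 5896 genes and 13 to 25 of 36 with a library or a number left out. Slc2a6, Slc16a1, Pfkp, Adm, Egln1 and Egln3 passed the number test in all 16 alternatives run, and Aldoa, Eno1, Eno2, Gapdh, Ldha, Pgk1 and Tpi1 in none. Depth limits Ldhb most, which had as few as 22 counts in a library.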
